A study of Mus musculus with 4 samples.

Results

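The clustered histone genes are the genes whose symbol begins with Hist1h, Hist2h, Hist3h or Hist4h, and they were taken from the gene list of the series by that rule alone. The rule found 67 of 31053 genes, of which 6 encode the linker histone H1, 18 encode H2A, 18 encode H2B, 12 encode H3 and 13 encode H4. On the mm10 build, 54 of them lie in the Hist1 cluster on chromosome 13, 10 in the Hist2 cluster on chromosome 3, 2 in the Hist3 cluster on chromosome 11 and 1, Hist4h4, on chromosome 6. Their level was followed in 33388 bone marrow cells with at least 500 detected genes and at most 15% mitochondrial UMIs (unique molecular identifiers, the counted mRNA molecules).

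Marrow from femur and tibia of 12-month-old C57/B6 mice was depleted of red cells and profiled by droplet single-cell RNA-seq, with 1 library per genotype. The TWT library was IL6+/+, mDia1+/+ and miR146a+/+. The IL-6 KO library was IL6-/- with mDia1+/+ and miR146a+/+, the DKO library was mDia1-/- and miR146a-/- with IL6+/+, and the TKO library was -/- at all 3 genes. How many mice were pooled for a library is not stated in the labels. With 1 library per genotype, values are set side by side between single genotypes without a test, and their intervals cover counting error only.

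Nuclear DNA is wound around cores of H2A, H2B, H3 and H4, with H1 bound to the linker, and a cell that copies its genome has to supply new histones during S phase. The clustered genes are the main source of that supply. Their mRNAs usually end in a conserved stem-loop bound by SLBP rather than in a poly(A) tail, NPAT drives their transcription, and a few clustered genes also give polyadenylated mRNA in cells that do not divide. The libraries were primed from poly(A), so a CPM (UMIs of a gene per 1000000 UMIs of the summed cells) covers the polyadenylated or internally primed share of these mRNAs and not all histone mRNA.

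The stem-loop was found in annotated transcripts (GENCODE M21) of 46 of the 67 members, against 0.467% of 55450 genes with a transcript. The 3 most frequent forms are shown because they differ in so few letters, with the loop in capitals between the arms. Form A stood in 26 members of types H1, H2A, H2B and H3, form B in 7 members, all of them H4, and form C in 6 members.
form A: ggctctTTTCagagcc
form B: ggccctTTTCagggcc
form C: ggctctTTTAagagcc
In 23 of the 46 the annotated transcript ran on for at least 100 bases past the stem-loop. Hist1h2ac ran on for 2010 bases, Hist3h2a for 1643, Hist1h1e for 1153, Hist1h1c for 840 and Hist1h4d for 770. Hist1h2ap ended 3 bases past it and Hist1h2ab 11 bases past it.

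RefSeq promoters (GRCm38.p6, 250 bases before to 50 after a start) were matched to 62 of the 67 members, and each motif was searched on both strands. CCAAT stood in 85.7% of the 63 member promoters and in 37.4% of all 32851. Every H1, H2A, H2B and H3 promoter held it, and 3 of 12 H4 promoters did. TATAAA was in 55.6% of member promoters against 13.6% of all. The octamer ATTTGCAT was in 7 of 18 H2A and 7 of 17 H2B promoters and in 1.74% of all, and AAACACA was in 5 of 6 H1 promoters and in 7.18% of all. The 200 bases before the start are printed for an H1 gene that was low outside dividing cells (Hist1h1b), an H1 gene that was not (Hist1h1c), an H2A gene with the octamer (Hist1h2ac) and an H4 gene (Hist1h4d). Capitals mark these motifs on either strand, with CCAAT then read as ATTGG and the octamer as ATGCAAAT, and none of the marked motifs overlaps another. A match describes letters and not a bound factor.
Hist1h1b, chr13:21780626-21780825, minus strand: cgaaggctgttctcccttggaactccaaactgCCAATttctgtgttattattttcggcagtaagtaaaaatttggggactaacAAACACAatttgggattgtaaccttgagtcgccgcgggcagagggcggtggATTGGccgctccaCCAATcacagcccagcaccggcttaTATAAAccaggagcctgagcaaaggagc
Hist1h1c, chr13:23738607-23738806, plus strand: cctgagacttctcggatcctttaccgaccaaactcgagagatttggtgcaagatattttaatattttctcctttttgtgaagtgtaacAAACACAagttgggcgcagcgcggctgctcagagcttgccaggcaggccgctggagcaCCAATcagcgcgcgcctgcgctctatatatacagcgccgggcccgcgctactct
Hist1h2ac, chr13:23683960-23684159, minus strand: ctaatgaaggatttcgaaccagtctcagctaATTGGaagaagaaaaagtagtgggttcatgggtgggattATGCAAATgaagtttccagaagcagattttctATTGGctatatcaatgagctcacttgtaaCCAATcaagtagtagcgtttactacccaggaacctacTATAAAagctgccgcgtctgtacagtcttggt
Hist1h4d, chr13:23581368-23581567, plus strand: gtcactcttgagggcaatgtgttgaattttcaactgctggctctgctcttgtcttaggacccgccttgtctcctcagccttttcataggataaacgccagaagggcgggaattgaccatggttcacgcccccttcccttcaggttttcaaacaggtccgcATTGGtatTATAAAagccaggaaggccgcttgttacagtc

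The cells kept held 59939951 to 84131435 UMIs per library, and the DKO library was the deepest per cell, with a median of 7257.5 UMIs against 5144.5 to 5283.5 in the others. Pairs of libraries shared 19 to 36 cell barcodes. Cells were put in classes by marker genes, and each class named below had at least 4 of its markers among its 10 leading genes, with the exception of plasma cell-like cells, which had 1. A cell was called dividing when it held at least 2 UMIs of Mki67 and Top2a together, which gave 1679 of 7440 TWT, 1653 of 7898 IL-6 KO, 1341 of 9902 DKO and 1940 of 8148 TKO cells. Dividing cells had a median of 15687 to 17731 UMIs and other cells 3850 to 6422, so the gate is more easily met by a deep cell.

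The clustered histone genes were several-fold higher in dividing cells of every library. All classes are pooled here, so dividing and other cells differ in class as well as in division. Dividing cells of TWT, IL-6 KO, DKO and TKO had a summed level of 3010.2, 3270.1, 3349 and 3103 CPM. Other cells had 411, 469.8, 336 and 472 CPM. The ratio of dividing to other cells was thus 7.32, 6.96, 9.96 and 6.57, and the levels of the 2 kinds of cell did not overlap.

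A few members made up most of that level. Of 447156 member UMIs, Hist1h1b gave 19.3%, Hist1h1e 14.0% and Hist1h2ap 10.7%. With Hist1h2ae (H2A) and Hist1h4d (H4), these 5 made up 64.5% of the histone level of dividing cells. At least 1000 UMIs were counted for 38 members, and under 10 for 3, Hist1h2aa with 8, Hist1h2bq with 1 and the testis histone gene Hist1h2ba with none.

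With all classes pooled, the linker histone genes differed from one another in how far they rose. Hist1h1b stood at 538, 622, 989 and 706 CPM in dividing cells of TWT, IL-6 KO, DKO and TKO and at 9.92, 10.1, 13.9 and 11.1 CPM in other cells. This was a log2 fold of 5.88 ± 0.18 (standard error derived from edgeR's fit to the 4 libraries). Hist1h1e stood at 291, 355, 528 and 448 CPM in dividing and 72.7, 91.6, 94.96 and 108 CPM in other cells, a log2 fold of 2.03 ± 0.18. Both genes were higher in all 4 libraries, and Hist1h1e kept a level in other cells that Hist1h1b did not. Hist1h1c stood at 105, 120.0, 136 and 116 CPM in dividing and 103, 95.6, 60.5 and 95.7 CPM in other cells, and its log2 fold of 0.36 ± 0.25 missed the threshold (edgeR's quasi-likelihood test with Benjamini-Hochberg adjustment, adjusted p = 0.245).

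**Figure D1:**
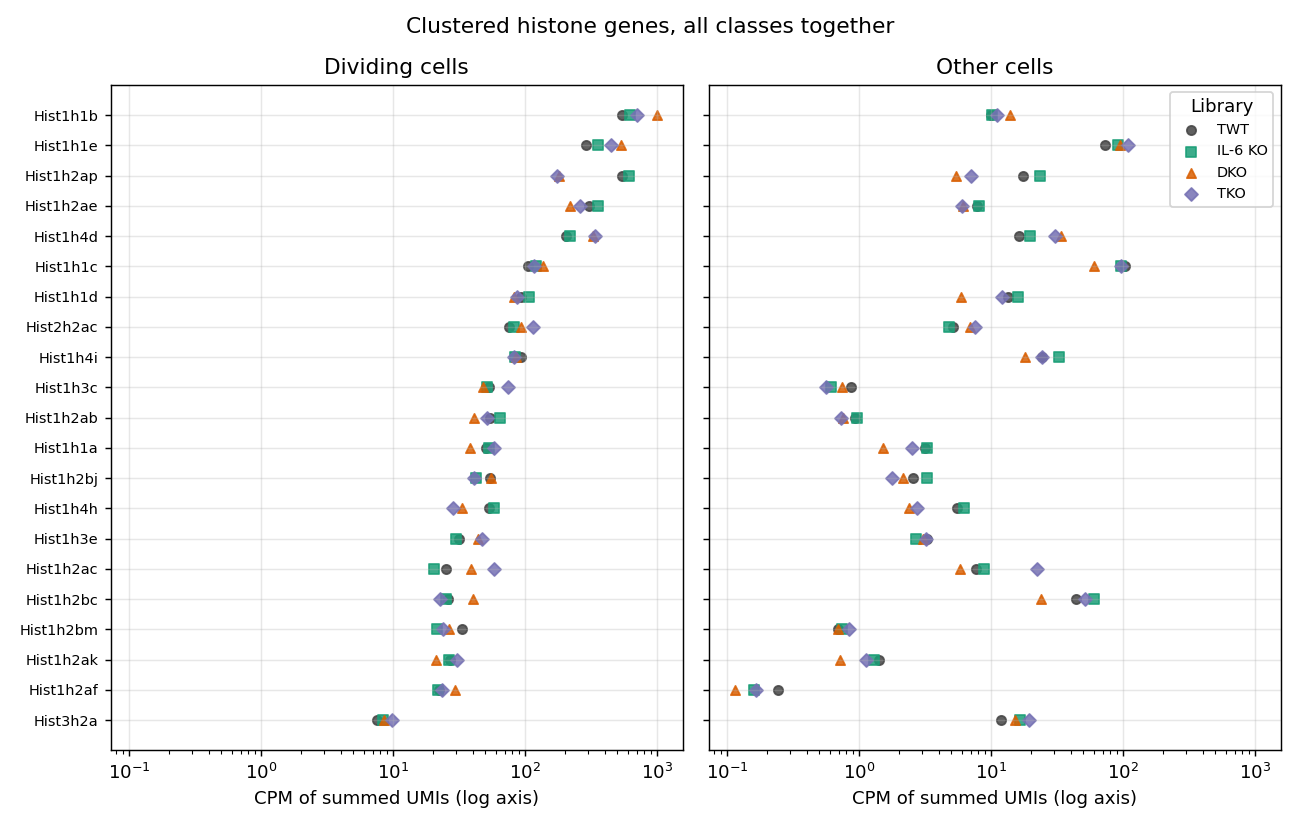
CPM on a log axis for the 20 members highest in dividing cells and those of the 10 highest in other cells not among them, in dividing cells (left) and other cells (right), with 1 symbol per library. Hist1h1b lies at 538 to 989 CPM on the left and at 9.92 to 13.9 CPM on the right, while Hist1h1c lies at 60.5 to 136 CPM on both sides.

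With the cells summed per library and the library as a block, edgeR's quasi-likelihood test with Benjamini-Hochberg adjustment called 54 of 61 members tested higher in dividing cells and 1 lower. Of all 12824 genes tested, 33.9% were called higher and 35.4% lower. The median log2 fold was 3.44 over the members tested and -0.03 over all genes. By type, 4 of 5 H1, 15 of 16 H2A, 13 of 16 H2B, 9 of 11 H3 and 13 of 13 H4 members tested were higher, and the 6 members not tested had too few UMIs.

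Within each type the folds of this pooled fit spanned a wide range, and class and division cannot be told apart in them. The steepest of each type were Hist1h2af for H2A (7.16 ± 0.28), Hist1h3c for H3 (6.24 ± 0.20), Hist1h1b for H1, Hist1h2bm for H2B (5.07 ± 0.19) and Hist1h4k for H4 (4.93 ± 0.28). Hist1h2af went from 0.241, 0.161, 0.115 and 0.166 CPM in other cells to 22.2, 21.7, 29.2 and 23.4 CPM in dividing cells. At the other end stood Hist1h2bc for H2B (-0.73 ± 0.41, adjusted p = 0.161), Hist2h3c2 for H3 (-0.29 ± 0.32, adjusted p = 0.457), Hist1h1c for H1 and Hist4h4 for H4 (0.95 ± 0.28, adjusted p = 0.0221) by the same edgeR test. Hist3h2a, an H2A gene of the small Hist3 cluster, was the member called lower, at 7.60, 8.32, 8.50 and 9.86 CPM in dividing against 11.96, 16.5, 15.1 and 19.5 CPM in other cells (log2 fold -0.95 ± 0.12).

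Members were also grouped by where their annotated transcript ends, with the folds of the same pooled fit. Of those that end within 100 bases of the stem-loop, 22 were tested, with a median log2 fold of 3.96 and 4 under 2. Of those that run on for at least 100 bases, 22 were tested, with a median of 1.96 and 11 under 2. The latter held 73.7% of the histone level of other cells and 45.7% of that of dividing cells. The 17 tested members without a stem-loop in the annotated transcript had a median of 4.38. Annotated transcripts of this group can be short, at 393 bases for Hist1h2ak and 411 for Hist1h3i, and may leave out a stem-loop of the mRNA.

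Outside division, the leading members were in part different. Hist1h1e (91.9 ± 14.7 CPM, SD, n = 4 libraries), Hist1h1c (88.6 ± 19.0) and Hist1h2bc (44.7 ± 15.4) made up 53.3% of the histone level of other cells. For dividing cells of TWT, IL-6 KO, DKO and TKO, the share of H1 in histone UMIs was 35.8%, 38.4%, 53.0% and 45.6%. The share of H2A was 36.9%, 37.9%, 20.1% and 24.6%, so that H2A was the lower and H1 the higher in both libraries without mDia1 and miR146a. Classes are pooled here, and immature neutrophil-like cells were 514 of 1679 dividing cells in TWT and 658 of 1341 in DKO. How far class or the H2A gene Hist1h2ap entered these shares was not tested.

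Genes outside the clusters that serve the same process were followed from fixed lists by the same edgeR test, again with all classes pooled. Of 11 replication-independent histone genes tested, 8 were higher in dividing cells, among them H2afx (log2 fold 4.17), which is phosphorylated at DNA breaks, Cenpa (3.56), the H3 of centromeres, and H2afz (1.96). H3f3a (-0.22) and H3f3b (0.34), which encode the H3.3 deposited throughout the cell cycle, missed the threshold. Of 16 genes of histone mRNA transcription and processing, 12 were higher, among them Ccne2 (4.64), Ccne1 (4.46), Slbp (2.08) and Npat (1.29), and 2 were lower, Lsm10 (-0.86) and Xrn1 (-0.25). Of 18 chaperone and assembly genes, 17 were higher, led by Asf1b (4.94) and Chaf1a (3.92), and Daxx (-0.34), a chaperone of H3.3, was lower. All 30 S phase and all 30 G2/M genes listed were higher, in cells that the gate had chosen as cycling.

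Over 89 sums of cells by class, status and library, the genes most like the summed histone level were Mki67 (Pearson r = 0.92), Cenpf (0.91), Hmmr (0.90), Ube2c, Nusap1, Ube2s and Kif11 (each 0.90), Fbxo5, Prc1 and Top2a (each 0.89). Slbp had r = 0.80, Pcna 0.70 and Npat 0.39. The sums share libraries, and Mki67 and Top2a made the gate, so these values are a description.

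Dividing cells of each library were put in 4 equal bins by their share of UMIs from S phase genes. From the lowest to the highest bin, TWT had a summed histone level of 1742, 3669.8, 3187 and 3118 CPM and IL-6 KO of 1662, 3742, 3504 and 3849.6 CPM. DKO had 802, 3588, 4167 and 4157 CPM, and TKO 2344, 3212, 3084 and 3583 CPM. The bin with the fewest S phase UMIs had the lowest level in each library, and in TWT the bin with the most did not have the highest. The 2 upper bins of DKO did not differ beyond their intervals, 4115 to 4220 and 4109 to 4206 CPM. Binned by G2/M genes, the lowest bin held 1330.0, 1417, 1563 and 1605 CPM in TWT, IL-6 KO, DKO and TKO and the highest 3486, 3724, 4512 and 3971 CPM.

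**Figure D2:**
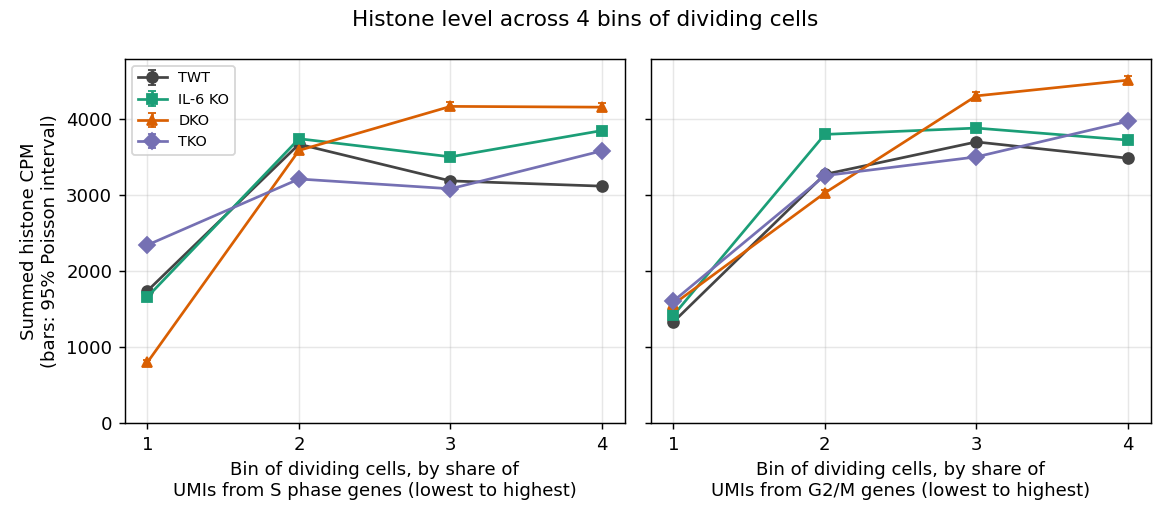
Summed histone CPM in 4 equal bins of the dividing cells of each library, ordered by the share of UMIs from S phase genes (left) and G2/M genes (right), with 95% Poisson intervals as bars. The lowest bin has the lowest level in each library, at 802 to 2344 CPM on the left and 1330.0 to 1605 CPM on the right.

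Of the classes with both kinds of cell in at least 3 libraries, the ratio of mean levels was widest in immature neutrophil-like cells, the granulocyte precursors led by Ltf, Ngp and Camp. Their dividing cells held 3729, 3437, 3972 and 3437 CPM in TWT, IL-6 KO, DKO and TKO, and their other cells 271, 291, 357 and 297 CPM. Of 57 members tested, 55 were higher and none lower, against 37.1% of all genes called higher, and Hist3h2a (-0.06 ± 0.19) and Hist2h3c2 (0.48 ± 0.32) missed the threshold. Folds included 7.78 ± 0.22 for Hist1h2af, 7.15 ± 0.15 for Hist1h2ab and 6.81 ± 0.16 for Hist1h1b. Hist1h1c (1.21 ± 0.07) and Hist1h2bc (0.68 ± 0.17) were higher too, which they were not over all classes together.

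In monocyte-like cells, 41 of 42 members were higher (25.9% of all genes) and Hist3h2a was lower (-0.87 ± 0.17). Granulocyte-monocyte progenitor-like cells, led by Elane, Mpo and Prtn3, had 36 of 46 members higher (5.55% of all genes), and 13 without the library as a block (0.852%). Between 80.0% and 94.3% of these progenitors passed the gate, which left 30 to 83 other cells per library. In the classes that follow, the DKO library had fewer than 20 cells of a kind and was left out. Of 41 members in erythroid-like cells, 19 were higher (18.6% of all genes), and of 35 in pro/pre-B cell-like cells 30 were (30.8%). Of 16 in stem and early progenitor-like cells, 13 were higher (12.0%), and of 17 in basophil- and mast cell-like cells 12 were (25.0%). Members were lower too in 3 of these classes, Hist1h2bc in erythroid-like cells (19.5% of all genes lower), Hist3h2a in pro/pre-B cell-like cells (-1.20 ± 0.17, 30.7% of all genes) and Hist1h2ac (-0.64 ± 0.24) and Hist1h1c (-0.57 ± 0.19) in basophil- and mast cell-like cells (23.3%). With no filter on low counts, 23 of 60 members were higher in stem and early progenitor-like (7.24%) and 26 of 61 in basophil- and mast cell-like cells (11%).

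Erythroid-like cells below the gate held histone mRNA. Hist1h1b stood at 131, 120.2 and 108 CPM in their other cells of TWT, IL-6 KO and TKO and at 656, 725 and 718 CPM in their dividing cells. In immature neutrophil-like other cells it stood at 5.04, 4.36, 8.49 and 2.32 CPM in TWT, IL-6 KO, DKO and TKO. From other to dividing erythroid-like cells, the S phase list had a median log2 fold of 1.22 and the G2/M list of 2.04. In immature neutrophil-like cells these were 3.48 and 5.50. The gate thus parted the erythroid-like class less, and whether its other cells were cycling was not tested. Hist1h2bc was lower in dividing erythroid-like cells, at 24.2, 13.5 and 23.1 CPM against 36.3, 37.9 and 41.1 CPM in other cells of the 3 libraries (log2 fold -1.40 ± 0.36). The other-cell values rest on 10 to 12 UMIs each. When the gate was set on cells thinned to 2000 UMIs, 39 of 43 members were higher in dividing erythroid-like cells (16.5% of all genes).

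**Figure D3:**
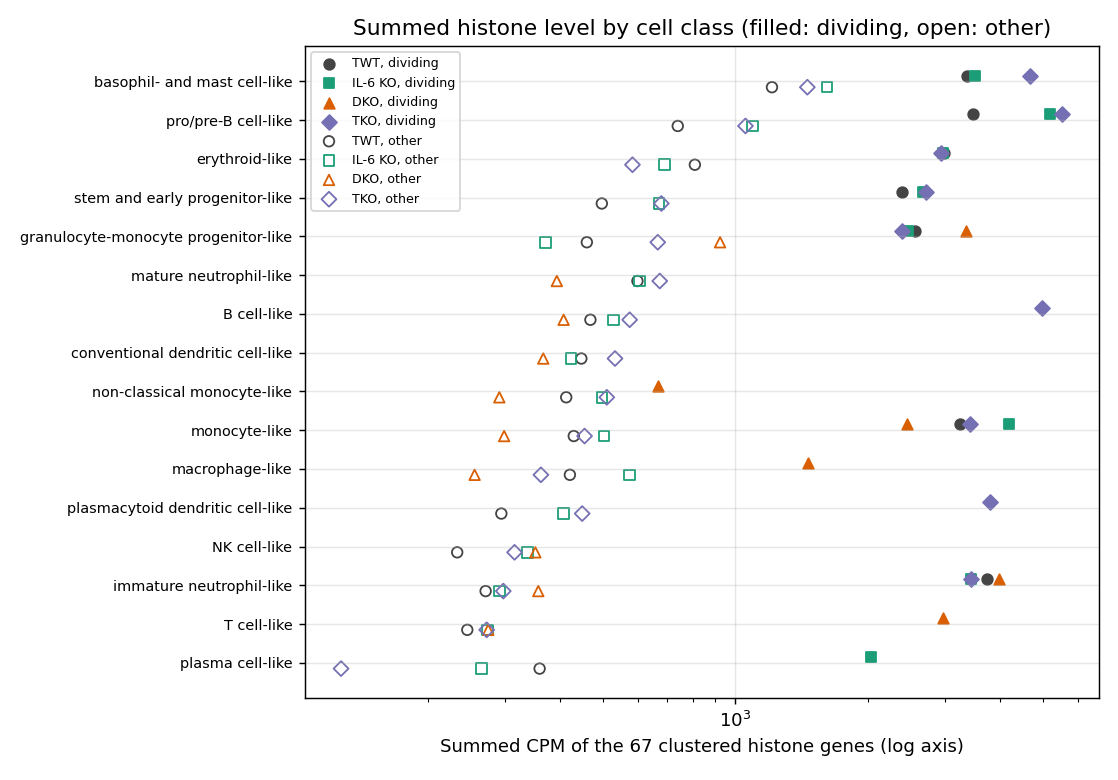
Summed CPM of the 67 members on a log axis for each class with at least 20 other cells in at least 3 libraries, with filled symbols for dividing and open symbols for other cells, 1 symbol per library. Dividing immature neutrophil-like cells lie at 3437 to 3972 CPM and their other cells at 271 to 357 CPM.

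Among other cells, the basophil- and mast cell-like (1428 ± 204 CPM, SD, n = 3 libraries) and pro/pre-B cell-like cells (963 ± 194, n = 3) had the highest mean levels of the classes with 3 libraries or more. Their ranges, 1211 to 1615 and 739.6 to 1095 CPM, did not overlap. Erythroid-like (694 ± 113, n = 3), stem and early progenitor-like (615 ± 102, n = 3), granulocyte-monocyte progenitor-like (605 ± 246, n = 4) and mature neutrophil-like cells (567 ± 121, n = 4) followed, with ranges that overlapped. Immature neutrophil-like (304 ± 36.9, n = 4), T cell-like (266 ± 13.7, n = 4) and plasma cell-like cells (250.3 ± 117, n = 3) were at the lower end and overlapped as well.

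Dividing cells of different lineages held the members in different proportions. Summed levels of dividing cells had a mean of 3644 CPM (3437 to 3972) in immature neutrophil-like cells. The mean was 3327 CPM (2458 to 4195) in monocyte-like and 4724 CPM (3460 to 5535, 3 libraries) in pro/pre-B cell-like cells. These ranges overlapped. The edgeR test rescales the sums against one another (TMM), so its folds and calls can differ from ratios of CPM. The pro/pre-B cell-like mean was the highest, while more members were called lower than higher. Against dividing immature neutrophil-like cells, dividing monocyte-like cells had 43 of 57 members lower (33.5% of all genes) and 3 higher (33.3% of all genes). Those lower included Hist1h4h (-1.63 ± 0.12), Hist1h1d (-1.56 ± 0.08), Hist1h1c (-1.41 ± 0.08) and Hist1h1e (-1.39 ± 0.11). The 3 that were higher were Hist1h1a (0.88 ± 0.17), Hist3h2a (0.80 ± 0.17) and Hist3h2ba. With at most 4000 detected genes per cell, 1 of 54 members was higher, Hist3h2ba (30.7% of all genes). Of 30 G2/M genes, 28 were lower in the monocyte-like cells too, and the part of cycle position in these differences was not tested. Dividing pro/pre-B cell-like cells of 3 libraries had 29 of 55 members lower (37.6%) and 5 higher (36.8%), the latter Hist1h1a, Hist3h2a, Hist3h2ba, Hist2h2be and Hist1h3a. The higher count was 3 of 57 without TKO and 10 of 57 without TWT, with the share of all genes not given. With at most 4000 detected genes per cell, 14 of 57 members were lower (34.5% of all genes) and 10 higher (32.2%). DESeq2 called 19 of 55 lower (29.9%) and 3 higher (29.2%). Of 30 S phase genes, 27 were higher in the dividing pro/pre-B cell-like cells, as were 12 of 18 assembly genes, while 18 of 30 G2/M genes were lower. The part of cycle position was not tested here either.

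Hist1h1a, the gene of linker histone H1.1, was higher than in the neutrophil lineage in both. It stood at 16.2, 12.1, 23.1 and 13.3 CPM in dividing immature neutrophil-like cells of TWT, IL-6 KO, DKO and TKO and at 52.7, 50.4, 42.6 and 53.97 CPM in dividing monocyte-like cells. In dividing pro/pre-B cell-like cells of TWT, IL-6 KO and TKO it stood at 109, 153 and 205 CPM. The log2 fold of the edgeR test over the neutrophil lineage was 2.61 ± 0.14, which after rescaling is smaller than the ratio of these CPM. The fold for monocyte-like cells was smaller than the ratio of mean CPM as well. The levels of these 3 classes did not overlap. Hist3h2ba, an H2B gene, stood at 0.392, 0, 0.971 and 0 CPM in the neutrophil, 4.08, 2.63, 10.7 and 2.70 CPM in the monocyte and 24.7, 31.2 and 42.8 CPM in the B lineage, and no fold is given because 2 neutrophil sums are at 0. Its neighbour Hist3h2a stood at 25.9, 26.3 and 35.2 CPM in dividing pro/pre-B cell-like cells against 4.70, 3.56, 6.31 and 6.14 CPM in the neutrophil lineage.

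Neutrophils leave the cell cycle as they mature, and the members differed in what remained. Only 1 to 4 mature neutrophil-like cells per library passed the gate, so the other cells of the mature and the immature class were compared, a comparison chosen after these data had been seen. By edgeR's quasi-likelihood test with Benjamini-Hochberg adjustment, 7 of 20 members tested were higher in mature cells (31.5% of all genes) and 5 lower (33.0%). Both counts are near what these shares of all genes would give, so they do not set the members apart.

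Hist1h2bc, the H2B gene that led outside division, had the highest fold. It stood at 8.12, 14.1, 15.9 and 11.7 CPM in immature cells of TWT, IL-6 KO, DKO and TKO and at 143, 169.8, 44.4 and 175 CPM in mature cells, a log2 fold of 3.24 ± 0.39. The classes did not overlap, and the mature DKO cells held the least of the 4 mature sums. Hist1h1c stood at 64.3, 52.1, 70.7 and 60.1 CPM in immature and 236, 165, 96.6 and 209 CPM in mature cells (1.43 ± 0.21). Hist1h2be (2.09 ± 0.26), Hist1h4i (1.81 ± 0.21), Hist1h2ac (1.31 ± 0.28), Hist3h2a (1.05 ± 0.20) and Hist1h2ap (0.84 ± 0.15) were higher as well. Hist1h4d (-1.46 ± 0.15), Hist1h1d (-1.39 ± 0.20), Hist1h4h (-1.10 ± 0.25), Hist2h2ac (-1.01 ± 0.32) and Hist1h1e (-0.60 ± 0.15) were lower. With the gate set on cells thinned to 2000 UMIs, which fewer cells pass, 27 of 38 members were lower (37.0% of all genes) and Hist1h2ap turned to a log2 fold of -1.74. Of 16 assembly genes tested, 10 were lower in mature cells and 1 higher.

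Hist1h2ac and Hist1h2bc, both higher in mature cells, are divergent neighbours at chr13:23681467-23683948 (minus strand) and chr13:23684199-23692908 (plus strand). The Hist1h2ac sequence printed above lies between them. In mature cells Hist1h2ac stood at 10.4, 8.66, 5.50 and 28.6 CPM.

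**Figure D4:**
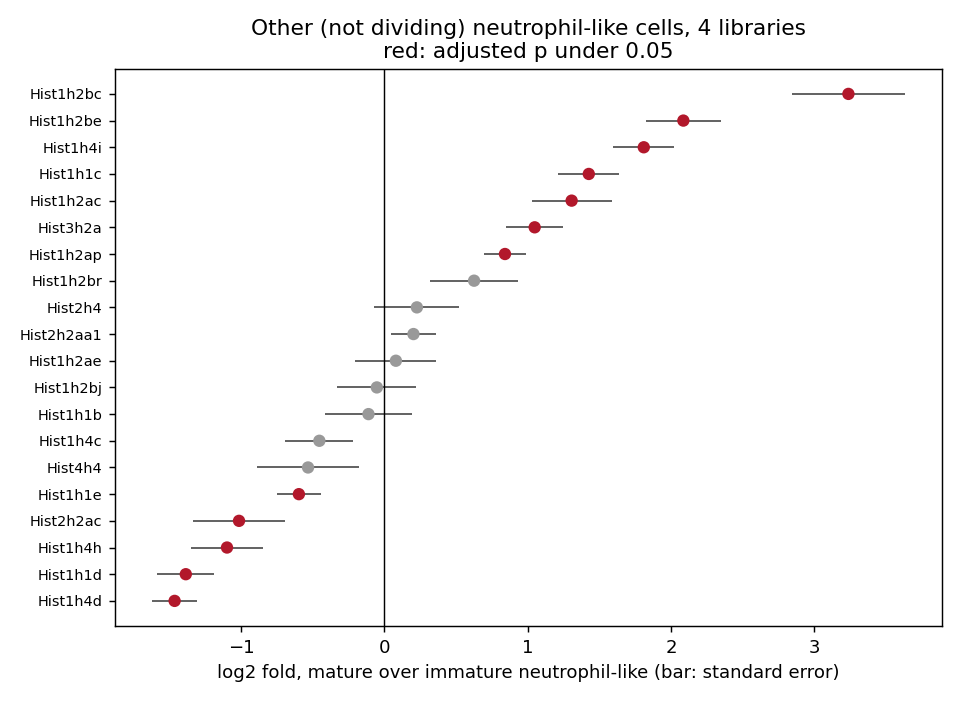
Log2 fold of mature over immature neutrophil-like other cells for the 20 members tested in 4 libraries, with standard errors as bars and members of adjusted p under 0.05 in red. Hist1h2bc lies farthest right at 3.24 and Hist1h4d farthest left at -1.46.

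Between genotypes, the summed level of DKO was 1.07 times that of TWT in dividing immature neutrophil-like cells and 1.31 times in dividing granulocyte-monocyte progenitor-like cells. It was 0.758 times in dividing monocyte-like cells and 0.656 times in mature neutrophil-like cells. Of monocyte-like cells, 38.3%, 31.8%, 12.1% and 37.7% were dividing in TWT, IL-6 KO, DKO and TKO. With each cell thinned to 2000 UMIs, in 653, 585, 1823 and 704 cells deep enough, the shares were 26.03%, 21.9%, 3.78% and 25.3%. DKO was the lowest both ways, so its dividing monocyte-like cells are a smaller part of their class.

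Single members were called apart at 2-fold or more, where 1 of the libraries reached 50 CPM and both together reached 30 UMIs. In dividing immature neutrophil-like cells, DKO against TWT had Hist1h1b higher and Hist1h2ap lower, 2 of 13 members (8.54% of all genes measured). From 10 CPM up this was 6 of 36 (11%), and without genes over 1% of UMIs in the total 4 of 23 (11.4%), with Hist1h1b no longer among them. TKO against TWT had Hist1h2ac higher and Hist1h2ap lower, 2 of 14 members (0.566%). DKO against TKO (4.11%) and IL-6 KO against TWT (0.191%) had 0 of 13.

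Dividing granulocyte-monocyte progenitor-like cells gave the same names. DKO against TWT had Hist1h1b higher and Hist1h2ap lower, 2 of 11 members (9.5%), and TKO against TWT had Hist1h2ac higher and Hist1h2ap lower, 2 of 11 (0.425%). DKO against TKO had 0 of 12 (4.32%) and IL-6 KO against TWT 0 of 10 (0.271%). The other cells of this class were few, 35, 38, 83 and 30 in TWT, IL-6 KO, DKO and TKO. In them Hist1h1b stood at 21.5, 17.8, 271 and 96.7 CPM, and DKO was 2.80-fold above the nearest library. The share of all genes as far apart in these cells is not given.

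In dividing monocyte-like cells, DKO differed from TWT in 4 of 14 members (11.9%), with Hist1h2bc higher and Hist1h2ap, Hist1h2ae and Hist1h2ab lower, and from 10 CPM up in 15 of 37 (16%). It differed from TKO in 5 of 15 (9.84%), with Hist1h2bc higher and Hist1h2ae, Hist1h2ac, Hist1h3c and Hist1h3e lower. TKO against TWT had Hist1h2ac higher and Hist1h2ap lower, 2 of 15 (0.604%), and IL-6 KO against TWT 0 of 14 (0.78%). Hist1h2ae stood at 417, 612, 167 and 352 CPM, and DKO was 2.10-fold below the nearest library.

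In mature neutrophil-like cells, DKO differed from TWT in 3 of 4 members (16.7%), with Hist1h1e higher and Hist1h2bc and Hist1h1c lower, and from 10 CPM up in 5 of 9 (16.3%). It differed from TKO in 3 of 4 (18.0%), with Hist1h4i, Hist1h2bc and Hist1h1c lower. TKO against TWT (1.23%) and IL-6 KO against TWT (0.659%) had 0 of 4. Hist1h2bc was 3.21-fold lower in DKO than in the nearest library.

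Hist1h2ap stood lower in both libraries without mDia1 and miR146a in each of 7 combinations of class and status with all 4 libraries tested. Between 34.4% and 56.7% of all genes did not overlap between these genotypes in a combination, in either direction. The share of all genes lower in all 7 is not given. All 7 come from the same 4 libraries, so they do not repeat one another independently. Hist2h2aa1 (H2A) was also lower in all 7, at 46.8, 32.9, 18.1 and 18.8 CPM in dividing immature neutrophil-like cells, and Hist1h4h (H4) in all 6 where it was tested, at 74.1, 70.4, 42.3 and 38.6 CPM there. Hist1h2ap stood at 767, 730.0, 235 and 238 CPM in dividing immature neutrophil-like cells of TWT, IL-6 KO, DKO and TKO. It stood at 502, 748, 96.6 and 169 CPM in dividing monocyte-like cells and at 499.9, 545, 174 and 144 CPM in dividing granulocyte-monocyte progenitor-like cells. DKO and TKO lay below TWT and IL-6 KO in each, and the closest levels across the genotypes were 3.07-fold, 2.98-fold and 2.87-fold apart. In mature neutrophil-like cells it stood at 25.2, 33.8, 7.02 and 11.7 CPM and in B cell-like other cells at 18.2, 18.9, 4.04 and 6.26 CPM. In the few other cells of the progenitor class, not among the 7, it stood at 53.7, 26.7, 49.5 and 32.2 CPM on 15 to 62 UMIs, and the genotypes overlapped.

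DKO and TKO were set against TWT and IL-6 KO, 2 libraries against 2, after this order had been seen, so the test is no independent support for it. In dividing immature neutrophil-like cells, edgeR's quasi-likelihood test with Benjamini-Hochberg adjustment called 1 of 58 members lower, Hist1h2ap (log2 fold -1.60 ± 0.16, adjusted p = 0.0353), against 0.0314% of all genes. Without the TWT library its adjusted p was 0.557 and without IL-6 KO 0.870, each leaving a lone library assumed to vary like the others. The log2 fold was -2.13 ± 0.30 in dividing monocyte-like cells (adjusted p = 0.427) and -1.51 ± 0.20 in dividing progenitor-like cells (adjusted p = 0.247) by the same edgeR test. The 2 genotypes on each side differ in IL6, and the libraries cannot be told apart from the genotypes.

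Other members stood on a common side without passing that test. In dividing immature neutrophil-like cells, DKO and TKO did not overlap TWT and IL-6 KO for 39 of 58 members, 17 higher and 22 lower, against 49.7% of all genes. This held for 29 of 53 members in dividing monocyte-like cells (42.1%) and 36 of 58 in dividing granulocyte-monocyte progenitor-like cells (56.7%). Hist1h2br, the divergent neighbour of Hist1h2ap, stood at 34.5, 26.2, 12.8 and 9.69 CPM in dividing immature neutrophil-like cells and Hist1h2bb at 38.3, 30.4, 16.4 and 13.99 CPM. On the other side, Hist1h2ac stood at 28.7, 20.1, 48.04 and 68.1 CPM, Hist1h2be at 18.8, 14.8, 33.9 and 34.3 CPM and Hist1h4d at 276, 266, 444 and 446 CPM.

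**Figure D5:**
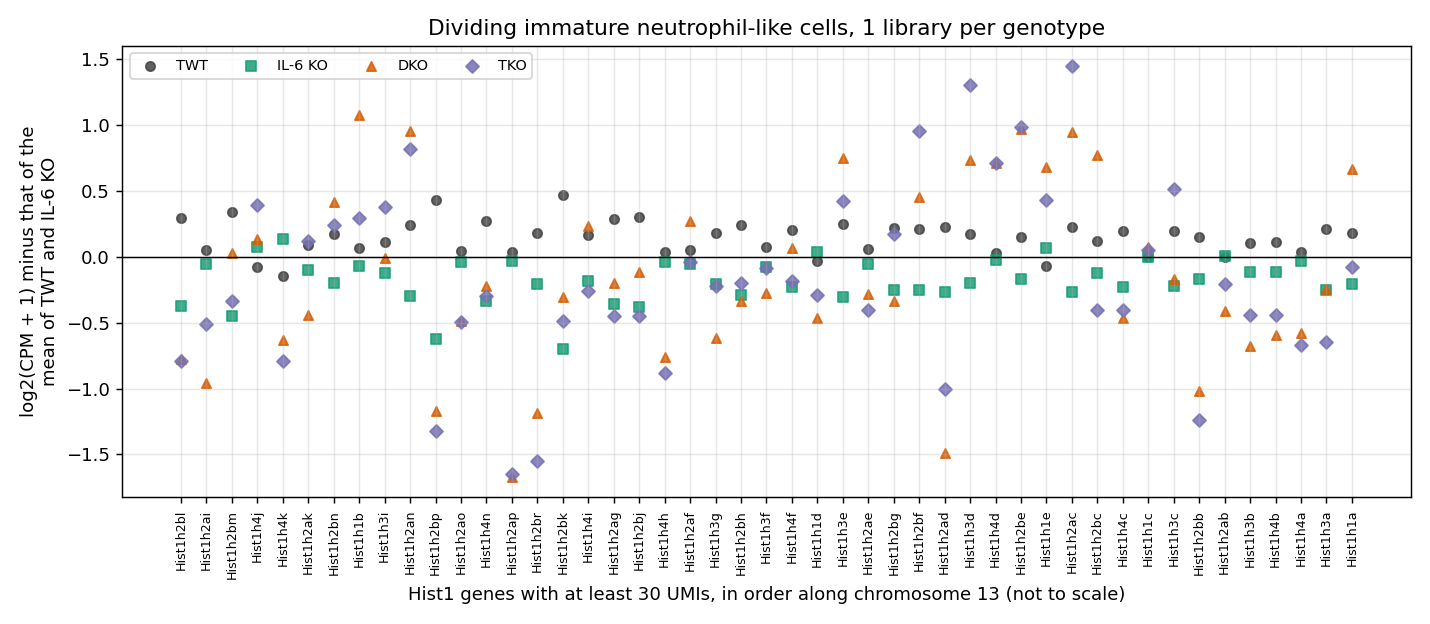
For each Hist1 gene with at least 30 UMIs in dividing immature neutrophil-like cells, log2(CPM + 1) in each library minus that of the mean of TWT and IL-6 KO, in gene order along the chromosome and not to scale. DKO and TKO lie together well below 0 at Hist1h2ap and Hist1h2br and above 0 at Hist1h2be, Hist1h2ac and Hist1h4d.

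Between chr13:21715763-23934851, the ends of the Hist1 cluster, 47 members with 30 UMIs or more had a log2 ratio of DKO and TKO over TWT and IL-6 KO from -1.66 to 1.22, with 7 beyond 1 in size. Each ratio is of mean CPM with 1 added, in dividing immature neutrophil-like cells, which shrinks the ratios of low genes and bears on these counts. The 4 other genes of that stretch with as many UMIs ran from -0.26 to 1.36, with 2 beyond 1. Both of these were high in DKO alone. Prss16 stood at 9.02, 9.86, 31.1 and 12.2 CPM and Hfe at 1.31, 1.19, 7.67 and 1.83 CPM in TWT, IL-6 KO, DKO and TKO, with TKO nearer to TWT and IL-6 KO than to DKO.

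The count of Hist1h2ap depends on reads that can be told from its copies. Of its 393 stretches of 90 bases, 363 (92.4%) are also in Hist1h2ao, and Hist1h2br shares 86.8% of its stretches with Hist1h2bq. Cell Ranger keeps reads that map to a single gene. Hist1h2ao held 132 UMIs and Hist1h2bq 1, against 47949 for Hist1h2ap and 2354 for Hist1h2br. Hist2h2aa1, with 3260 UMIs, shares 88.3% of its stretches with Hist2h2aa2, which held 31, so these levels are uncertain as levels of single genes. Hist1h2ac shares at most 8.19% and Hist1h4d at most 0.858% with any other member. The part of shared sequence in the difference between genotypes was not tested.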

How the data were processed

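The authors sequenced 10x 3′ v3 libraries and made UMI count matrices with Cell Ranger 3.0.2 on mm10; the deposited values are raw counts of UMIs per gene and barcode. Cells needed 500 detected genes or more and no more than 15% mitochondrial UMIs, and doublets marked by Scrublet were left in, with an alternative without them. Cells were classed by marker genes, and counts were summed per library, class and dividing status where at least 20 cells were present. Sums were tested with edgeR 4.0.16 in R 4.3.3 (quasi-likelihood test, TMM, filter on low counts, library as a block, Benjamini-Hochberg adjustment over all genes tested, called at 0.05), and DESeq2 1.42.0 was an alternative. The standard error of a log2 fold is the size of the fold divided by the square root of the F of its edgeR test. Other steps used Python 3.11.15 with scanpy 1.11.5. The fits were tested on simulated data with 200 changed genes. Genotypes have 1 library each and were compared by CPM with exact Poisson intervals.

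Members, marker genes and gene lists were chosen with earlier results of these data known. Named were members with at least 1000 UMIs, the 10 highest in dividing and in other cells, those 2-fold apart in DKO from each other library, and the extremes of each type; further members were named after their values were seen. The comparison of mature with immature neutrophil-like cells and that of DKO and TKO with TWT and IL-6 KO were added after the data were seen. Sums come from the libraries themselves, so p-values measure the spread between 3 or 4 libraries of different genotype.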

Additional observations from a re-analysis of the deposited data

Results flagged for a closer look

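Of 39 ratios of dividing to other cells checked over the 4 libraries, 1 had a library far from the rest. The log2 ratio of Hist1h1d, a linker histone gene, was 3.80 in DKO against 2.77 to 2.85 in the other libraries. About 1 in 20 such checks stands apart by chance.

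Hist1h2bc moved in opposite directions between classes. Its log2 ratio of dividing over other cells had a mean of -0.97 in erythroid-like cells (-1.49 to -0.58, 3 libraries), against a mean of 0.94 in immature neutrophil-like cells (0.48 to 1.55, 4 libraries). In pro/pre-B cell-like cells the mean was 0.78 (0.09 to 1.32, 3 libraries). The differences between these classes were not tested.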

How the results depend on the processing

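Leaving out each library in turn, members higher in dividing cells numbered 52 to 55 over all cells, 55 to 55 in immature neutrophil-like, 40 to 42 in monocyte-like, 32 to 35 in granulocyte-monocyte progenitor-like, 14 to 19 in erythroid-like, 29 to 39 in pro/pre-B cell-like, 13 to 17 in stem and early progenitor-like and 12 to 14 in basophil- and mast cell-like cells. Against the neutrophil lineage, monocyte-like cells had 3 to 3 higher and 33 to 43 lower, and pro/pre-B cell-like cells 3 to 10 higher and 24 to 30 lower. Mature cells had 7 to 10 higher and 4 to 4 lower, and the fold of Hist1h2ap between genotypes in dividing immature neutrophil-like cells was -1.63 to -1.58. Members tested and the share of all genes called change with the library left out and are not given, so these counts alone do not show that the members are stable. Each library carries replicate number 1, so the block is the library. Without the block, 13 of 46 members were higher in the progenitors (0.852% of all genes). Over all cells 53 were higher, and 3 of 20 were lower in mature cells, with the share of all genes not given.

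With the gate on cells thinned to 2000 UMIs, 39 of 43 members were higher in erythroid-like cells and 27 of 38 lower in mature cells, Hist1h2ap in mature cells turned to -1.74, and Hist3h2a in immature neutrophil-like cells turned to 0.19 (0.017 with a stricter class gate, and -0.25 to 0.12 with each library left out, above 0 without IL-6 KO and without DKO). With no filter on low counts, 23 of 60 members were higher in stem and early progenitor-like (7.24% of all genes) and 26 of 61 in basophil- and mast cell-like cells (11%). With at most 4000 detected genes, 1 member was higher in dividing monocyte-like than in dividing immature neutrophil-like cells, and 10 of 57 were higher and 14 lower in dividing pro/pre-B cell-like cells. DESeq2 gave 3 and 19 for the latter.

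The summed ratio of DKO to TWT in dividing immature neutrophil-like cells was 1.09 with at most 4000 genes, 1.09 without doublets, 1.13 with a gate of 4 UMIs, 1.11 with the stricter class gate, 1.10 thinned, 1.01 without genes over 1% of UMIs and 1.09 as a mean over cells. In dividing monocyte-like cells it was 0.539 with at most 4000 genes, 0.920 with a gate of 4 UMIs, 0.688 thinned and 0.671 as a mean over cells, and in mature neutrophil-like cells 0.738 thinned and 0.604 as a mean. Members 2-fold apart numbered 4 of 23 without genes over 1% of UMIs (11.4% of all genes) and 6 of 36 from 10 CPM up (11%) in immature neutrophil-like, 15 of 37 (16%) in monocyte-like and 5 of 9 (16.3%) in mature neutrophil-like cells from 10 CPM up.

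The dividing share of DKO over TWT was 0.692 with a gate of 1 UMI, 0.508 with 4 UMIs, 0.304 thinned and 0.756 with at most 4000 genes. In monocyte-like cells it was 0.400, 0.243 and 0.145 for the first 3 of these, and thinned it was 0.616 in immature neutrophil-like cells. The highest over the lowest S phase bin was 3.69 in TWT and 4.04 in IL-6 KO with at most 4000 genes, and 1.76 between 2 bins in DKO. For G2/M genes it was 3.07, 3.09 and 2.75 in TWT, IL-6 KO and TKO with at most 4000 genes, and 1.48, 1.39, 1.87 and 1.48 between 2 bins in TWT, IL-6 KO, DKO and TKO. The causes were not tested. Depth limits the rarer classes, whose other cells hold few histone UMIs.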
